A study of Mus musculus with 6 samples.

Results

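Cluster 8 is 1 of 14 groups of cells and nuclei in the deposited Seurat clustering of PB3, a mouse mammary tumour line. It was taken exactly as the authors' cell table assigns it, and it held 2906 of 51785 cells and nuclei. Of these, 2514 were whole cells (86.5%, 95% interval 85.2 to 87.7) and 392 were nuclei. All conditions share the same line, whose cells carried lentiviral lineage barcodes, and each condition was sequenced in 1 library, so no value below has a replicate check and no test between conditions was made. Intervals of shares are exact binomial (Clopper-Pearson) and intervals of medians are binomial too, and neither covers differences between cultures.

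In run 1, whole cells after 4 rounds of eribulin (ERI4 cells) and untreated cells (UNT cells) were captured. In run 2, cells after 1 (ERI1), 2 (ERI2) or 3 (ERI3) eribulin rounds shared 1 library marked with hashtag oligos. Cells after 1 (PAC1), 2 (PAC2) or 3 (PAC3) paclitaxel rounds shared another. In run 3, the RNA of nuclei after 4 rounds of eribulin (ERI4 nuclei) and of untreated nuclei (UNT nuclei) came from a multiome kit. Eribulin was given at 500 nM for 72 h, followed by 48 h of recovery in each round. Paclitaxel was given for 72 h, at 100 nM in the first round and at 250 nM later. A recovery of 48 h is listed for the paclitaxel library as a whole. For PAC2 no recovery is named once its second round ended, and for PAC1 and PAC3 the final recovery has no stated length. Doses therefore differed between the drugs, and whether the last recovery did is not known.

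Eribulin and paclitaxel both act on microtubules, the polymers that pull chromosomes apart in mitosis. Eribulin stops growth at the ends of microtubules, while paclitaxel stabilises them, and both hold dividing cells in mitosis. A lineage barcode is a random sequence that a lentivirus inserts into the genome, where daughter cells inherit it, so cells with the same barcode can be read as descendants of 1 infected cell. Pseudotime places each cell on a path learned from expression, here rooted in untreated cells by the authors, and its units are arbitrary. The deposited table has no gene values, so cluster 8 is described by depth, mitochondrial share, phase scores, pseudotime, position and barcode, and none of its marker genes can be named.

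The barcodes that carry the findings are printed first, because cluster 8 was mostly made of cells of 2 of them. Each has a 14-base first part, a 4-base linker and a 30-base second part, read from the deposited barcode list, with the second part in capitals. The first pair led in cluster 8, the next 4 were the most frequent after it, and the last led in cluster 2 and made up at least 5% of a condition's barcoded members in ERI4 nuclei only.
bc14-6-bc30-93034: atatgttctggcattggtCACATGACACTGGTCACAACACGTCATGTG
bc14-95-bc30-33662: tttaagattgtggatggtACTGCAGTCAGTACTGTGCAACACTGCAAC
bc14-29-bc30-49561: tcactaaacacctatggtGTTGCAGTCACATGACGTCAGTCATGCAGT
bc14-86-bc30-33342: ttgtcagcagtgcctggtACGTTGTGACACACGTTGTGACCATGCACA
bc14-18-bc30-28871: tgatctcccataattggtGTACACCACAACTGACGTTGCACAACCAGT
bc14-55-bc30-98358: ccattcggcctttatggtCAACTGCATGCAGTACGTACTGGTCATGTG
bc14-76-bc30-49517: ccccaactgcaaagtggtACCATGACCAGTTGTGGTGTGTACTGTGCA
The leading pair differed at 39 of 48 positions, and any pair of these 7 differed at 24 to 42 positions. A read of one is therefore many substitutions away from any other. The barcode list for run 2 held 185 barcodes, against 10000000 for runs 1 and 3. bc14-86-bc30-33342 was not in the run 2 list and could not have been called there.

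Cluster 8 was common after 3 and 4 rounds of eribulin and rare in untreated cells. It held 1503 of 9331 ERI4 cells, or 16.1% (15.4 to 16.9), and 19 of 11061 UNT cells, or 0.172% (0.103 to 0.268). The ERI4 minus UNT difference was 15.9 percentage points (15.2 to 16.7). Within run 2 it held 16 of 1865 ERI1 cells (0.858%, 0.491 to 1.39), 4 of 1257 ERI2 cells (0.318%) and 636 of 3076 ERI3 cells (20.7%, 19.3 to 22.2). With paclitaxel it held 203 of 2928 PAC1 cells (6.93%, 6.04 to 7.91), 17 of 848 PAC2 cells (2.00%) and 116 of 2792 PAC3 cells (4.15%, 3.45 to 4.96). It held 345 of 8711 ERI4 nuclei (3.96%, 3.56 to 4.39) and 47 of 9916 UNT nuclei (0.474%, 0.348 to 0.630).

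After 1 round the share was thus lower with eribulin than with paclitaxel, and after 3 rounds it was higher with eribulin. ERI1 minus PAC1 was -6.08 percentage points (-7.12 to -5.04), and ERI3 minus PAC3 was 16.5 (14.9 to 18.2). In all, ERI3 and ERI4 cells made up 73.6% of cluster 8, paclitaxel cells 11.6% and untreated cells and nuclei together 2.27%. The same 4 rounds of eribulin gave a share of 16.1% in cells and 3.96% in nuclei. Among those with 1 called barcode the share was 8.70% in ERI4 nuclei and 20.2% in ERI4 cells. In a UMI window common to the nuclei conditions (2176.5 to 4971) it was 5.99% in ERI4 nuclei. In the window common to the cell conditions (12026 to 19690.5) it was 17.4% in ERI4 cells. The value in nuclei thus depended on which nuclei were counted, and nuclei were not matched to cells in depth. Kit, run, kind of material and depth differ together between cells and nuclei, and their parts in the gap cannot be told apart.

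**Figure D1:**
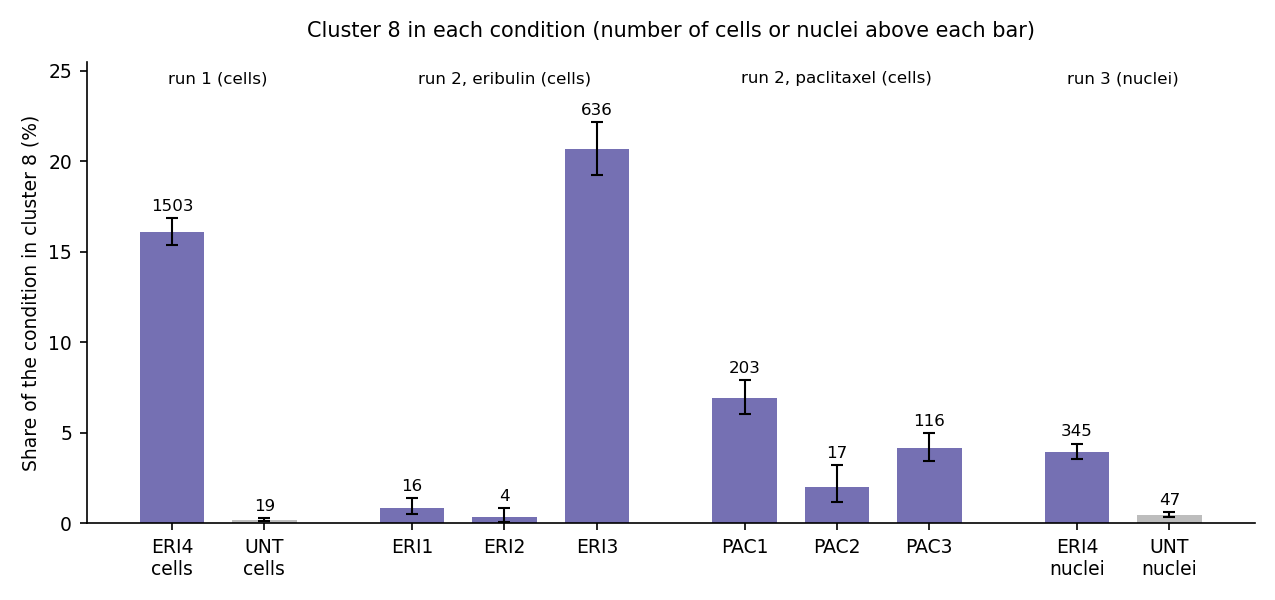
Share of each condition in cluster 8, in percent of its cells or nuclei, with exact 95% binomial intervals as error bars and the number in cluster 8 above each bar. The bars of ERI3 (20.7%) and ERI4 cells (16.1%) stand above all others, and those of UNT cells (0.172%) and UNT nuclei (0.474%) are near 0.

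Libraries of the same run shared a few cell barcodes, 26 in run 1, 16 in run 2 and 134 in run 3. Of the members of cluster 8, 3, 5 and 3 carried one of them, and the shares without them stayed within their intervals. Each of the 2906 members lay inside the authors' filter of at least 200 genes and at most 50% mitochondrial or ribosomal UMIs, while 179 cells of the whole table did not. UMIs are distinct RNA molecules counted in a cell. Members had median UMIs of 20485 in ERI4 cells, 10223 in ERI3, 10996 in PAC1, 10749.5 in PAC3 and 2392 in ERI4 nuclei. Those in ERI4 cells were about as deep as that condition at large (20877), and the nuclei were the shallowest. Members were shallower than cluster 2 in cells. Cluster 8 minus cluster 2 was -3401 in ERI4 cells, -1207 in ERI3, -2172.5 in PAC1 and -2384 in PAC3, each with a wholly negative interval. In ERI4 nuclei it was -92 (-235 to 80.5). Cluster 8 minus cluster 3 was -1909 (-2881 to -1225) in ERI3 and 411.5 (-192 to 879) in ERI4 cells. Contrasts between clusters are thus not matched in depth unless this is stated. Because depth differed between runs, values from different runs that are printed side by side are not matched in depth unless this is stated. Depth also differed inside run 2. Over whole conditions, median UMIs were 17297 in ERI1, 17285 in ERI2 and 16775 in PAC2. They were 11266.5 in ERI3, 11674 in PAC1 and 12775.5 in PAC3. Contrasts between rounds there, and that of ERI1 with PAC1, are therefore not matched in depth.

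The label "intermediate-pseudotime eribulin-survivor state" matched the values in cells in part. Over cells the median pseudotime of cluster 8 was 17.2, the 7th of 14 clusters in rising order, between 14.8 in cluster 0 and 19.6 in cluster 13. Cells of clusters 1 and 5 had medians of 8.38 and 2.46, and those of clusters 2, 12 and 3 had 23.2, 26.2 and 29.8. In ERI4 nuclei the members had a median of 22.7 (21.1 to 23.0), against 23.5, 24.0 and 25.4 in clusters 2, 3 and 12 of the same nuclei, which is much closer. Members also came from paclitaxel conditions (336 cells) and untreated ones, so the word eribulin covers most of them and not all.

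Pseudotime in cluster 8 was lower in run 2 than in run 1. Members of ERI1 had a median of 14.9, those of ERI2 15.0 and those of ERI3 15.6. With paclitaxel the medians were 15.4 in PAC1, 15.0 in PAC2 and 15.6 in PAC3. It was 17.8 (17.8 to 18.1) in ERI4 cells and 18.1 (15.4 to 18.4) in the 19 UNT cells. The intervals of UNT and ERI4 cells of cluster 8 overlapped, although untreated cells were the root of the scale. ERI4 nuclei had the 22.7 given above, and UNT nuclei had 14.9 (13.7 to 16.8). Run and number of rounds changed together between ERI3 and ERI4 cells and cannot be told apart.

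Many members had the same pseudotime after rounding to 2 decimals, the tolerance of the counts here. The value 15.58 was shared by 357 members, among them 44.5% of ERI3, 41.4% of PAC3 and 12.8% of PAC1 members, and by none of the 1503 ERI4 cells. The value 18.47 was shared by 431 members, among them 27.1% of ERI4 cells and 5.22% of ERI4 nuclei. Of the members at 15.58, 81.5% carried bc14-6-bc30-93034, and of those at 18.47, 84.5% carried bc14-95-bc30-33662. At any pseudotime, bc14-6-bc30-93034 was carried by 497 of 636 ERI3, 99 of 116 PAC3 and 113 of 203 PAC1 members. The share at 15.58 was thus near that lineage's share of ERI3 members. By comparison, bc14-95-bc30-33662 was carried by 651 of the 1503 ERI4 cells. A median at or near one of these values says little about the spread of cells along the path.

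A pair of lineages filled cluster 8. A single barcode was called in 2461 members (84.7%), with 67 different barcodes, of which 41 were seen once. bc14-6-bc30-93034 had 1396 members (56.7%, 54.7 to 58.7) and bc14-95-bc30-33662 had 800 (32.5%, 30.7 to 34.4), together 89.2%. The next were bc14-29-bc30-49561 with 45, bc14-86-bc30-33342 with 35, bc14-18-bc30-28871 with 30, bc14-55-bc30-98358 with 22 and bc14-76-bc30-49517 with 12.

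The balance of the pair differed between conditions. bc14-6-bc30-93034 made up 80.7% of barcoded ERI3 members and 44.3% (41.6 to 46.9) of barcoded ERI4 cells, while bc14-95-bc30-33662 made up 16.4% of ERI3 and 47.9% (45.3 to 50.6) of ERI4 cells. The order of the pair in ERI4 cells depended on the authors' version of the call, since the first version gave 49.6% and 44.3%. In ERI4 nuclei the shares were 50.0% (41.1 to 58.9) and 30.8% (23.0 to 39.5), but 28% and 38% in the first version and 8.56% each in the first revision of the call, so their order depended on the version there too. With paclitaxel the first was the main lineage and the second was nearly missing: they made up 63.5% and 2.25% of PAC1 members, and 90% and 0% of the 110 barcoded PAC3 members. The second was rare in these conditions as a whole, with 9 of 1792 barcoded PAC1 cells and 1 of 2286 barcoded PAC3 cells. Of its 9 PAC1 cells, 4 lay in cluster 8, so its near absence was not particular to cluster 8. In PAC1, bc14-18-bc30-28871 added 15.2%. All 35 members with bc14-86-bc30-33342 were ERI4 cells. Detection of 2 or more barcodes was common in ERI4 cells of cluster 8 (67.2%), so a called barcode was often not the only one detected there. The rate was 8.33% in its ERI3 cells, which came from another run. That run had a list of 185 barcodes, and members had a median of 10223 UMIs, against 20485 in ERI4 cells. These rates are therefore not compared.

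The pair was not found among the untreated whole cells of cluster 8. None of the 13 barcoded UNT members carried either barcode, which allows a share of up to 23.1% (3 counts of 13) and has an exact interval of 0 to 24.7%, and these 13 cells held 12 different barcodes. In UNT nuclei 3 of 23 barcoded members carried one of the pair. Both lineages existed in untreated cells, in other clusters: 14 of 15 UNT cells with bc14-6-bc30-93034 and 7 of 8 with bc14-95-bc30-33662 lay in cluster 1.

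**Figure D2:**
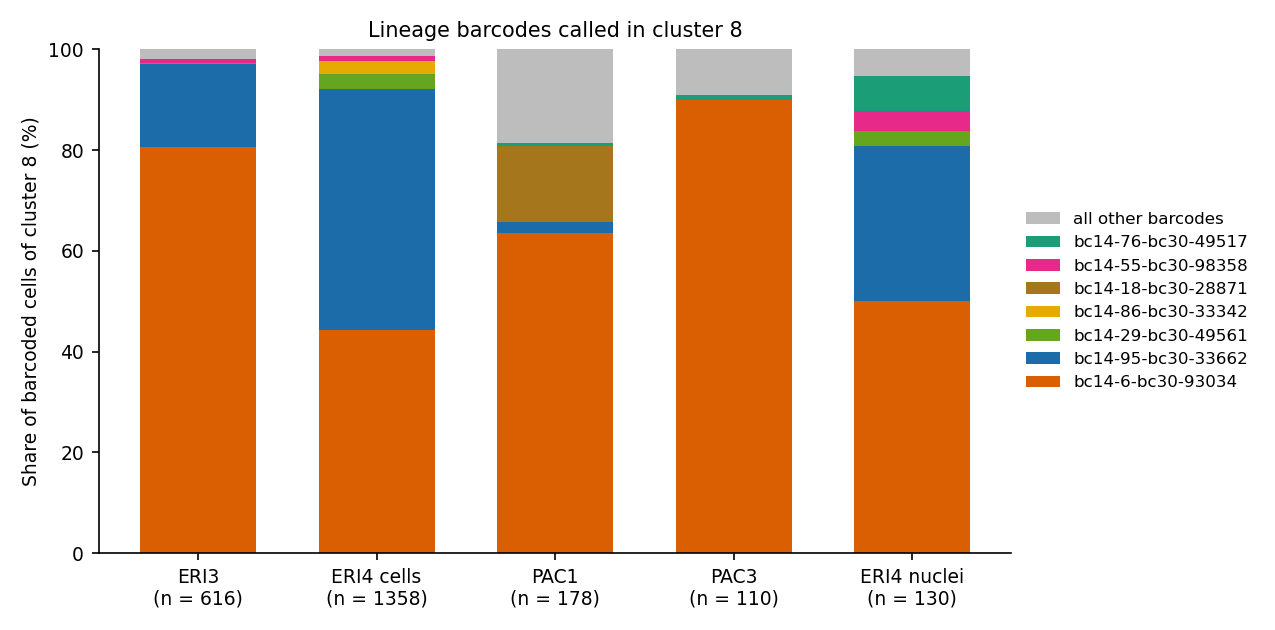
Barcodes called in cluster 8, as a stacked share of its barcoded members in 5 conditions (n below each bar). bc14-6-bc30-93034 takes 80.7% of ERI3, 44.3% of ERI4 cells, 63.5% of PAC1, 90% of PAC3 and 50.0% of ERI4 nuclei, and bc14-95-bc30-33662 is the next large block in the 3 eribulin conditions only.

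Read the other way, most cells of the pair lay in cluster 8 after 3 and 4 rounds of eribulin, and few cells of other lineages did. In ERI4 cells 1252 of 1386 cells of the pair (90.3%, 88.7 to 91.8) were members, against 106 of 5339 cells with any other barcode (1.99%, 1.63 to 2.40). In ERI3 the shares were 88.7% and 1.17%. In PAC1 they were 43.7% and 4.00%, and in PAC3 59.6% and 0.519%. With paclitaxel the pair was almost only bc14-6-bc30-93034, with 259 of 268 cells in PAC1 and 165 of 166 in PAC3. In ERI4 nuclei the shares were 17.1% (14.2 to 20.3) and 2.83% (1.84 to 4.16). ERI4 nuclei of the pair were thus mostly in other clusters, with 187 of 425 nuclei of bc14-6-bc30-93034 in cluster 10 and 75 of 188 of bc14-95-bc30-33662 in cluster 4. Among untreated members of the pair, 0 of 23 UNT cells (0 to 14.8%) and 3 of 18 UNT nuclei (16.7%, 3.58 to 41.4) lay in cluster 8. With so few UNT nuclei, no difference between ERI4 and UNT nuclei of the pair was seen.

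The share of bc14-6-bc30-93034 that lay in cluster 8 differed by round. It was 9 of 104 cells in ERI1 (8.65%, 4.03 to 15.8), 1 of 13 in ERI2 and 497 of 554 in ERI3 (89.7%, 86.9 to 92.1). In ERI1, 94 of its 104 cells lay in cluster 7. It was 113 of 259 in PAC1 (43.6%, 37.5 to 49.9), 9 of 39 in PAC2 (23.1%, 11.1 to 39.3) and 99 of 165 in PAC3 (60.0%, 52.1 to 67.5). ERI1 minus PAC1 was -35.0 percentage points (-42.8 to -25.6) for this 1 lineage. Depth was not matched in this contrast, with whole-condition medians of 17297 UMIs in ERI1 and 11674 in PAC1. The cause of the difference was not tested.

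The frequency of the same lineage in the whole condition also differed by round. bc14-6-bc30-93034 made up 7.67%, 1.47% and 25.01% of barcoded ERI1, ERI2 and ERI3 cells. It made up 14.5%, 6.85% and 7.22% of barcoded PAC1, PAC2 and PAC3 cells. In run 1 it made up 9.92% of barcoded ERI4 cells and 0.295% of barcoded UNT cells, and bc14-95-bc30-33662 made up 10.7% and 0.157%. In nuclei the first lineage made up 28.4% of barcoded ERI4 and 0.243% of barcoded UNT nuclei, and the second 12.6% and 0.122%. How often ERI4 cells could be assigned to a lineage varied by cluster. The rate was 90.4% in cluster 8 and 96.6% in cluster 3, but 24.6% in cluster 2 and 21.3% in cluster 12. In cluster 8 and in all other clusters together, the rates were 96.9% and 65.5% in ERI3. They were 87.7% and 59.2% in PAC1, 94.8% and 81.3% in PAC3, and 37.7% and 16.3% in ERI4 nuclei. Lineages of clusters with low rates are therefore undercounted in these frequencies, and the share of a lineage that lay mostly in cluster 8 is raised. In PAC3, bc14-6-bc30-93034 made up 7.22% of barcoded cells and 60.0% of it was in cluster 8. In ERI1 these values were 7.67% and 8.65%, and the cause was not tested.

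Some other lineages had many of their cells in cluster 8. Of bc14-29-bc30-49561, 40 of 54 ERI4 cells (74.1%, 60.3 to 85.0) were members, against 1 of 7 ERI3 cells. Of bc14-86-bc30-33342, 35 of 40 ERI4 cells (87.5%, 73.2 to 95.8) were members, and of bc14-55-bc30-98358, 12 of 17. Of bc14-18-bc30-28871, 27 of 54 PAC1 cells (50.0%, 36.1 to 63.9) were members. By contrast bc14-76-bc30-49517, the main barcode of cluster 2, had 1 of 432 ERI4 cells and 0 of 839 ERI3 cells in cluster 8. It made up 6.92% of barcoded ERI4 nuclei in cluster 8.

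Cluster 8 held few different barcodes where the pair was frequent. In 100 barcoded members an average of 4.48 different barcodes is expected in ERI3, 5.68 in ERI4 cells, 6.63 in PAC3, 9.20 in ERI4 nuclei and 17.8 in PAC1. Cluster 6, which held 1215 PAC1 cells, had 47.3 in PAC1 by the same measure. Cluster 2 had 12.3 in ERI3 and 6.55 in ERI4 cells, and cluster 3 had 2.62 in ERI4 cells.

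Within cluster 8 the leading lineages kept to separate places in the deposited UMAP in cells. This comparison was chosen after the values had been seen. In ERI4 cells the median position was -6.80 and 1.51 for bc14-6-bc30-93034 and -7.63 and 0.160 for bc14-95-bc30-33662. Of the 10 nearest neighbours among cells of the pair, 95.2% had the same barcode for the first and 95.8% for the second, where the lineages made up 48.0% and 52.0%. In ERI3 the same-barcode shares were 96.6% and 73.2%, where the lineages made up 83.1% and 16.9%. In ERI4 nuclei they were 66% and 50.8%, where the lineages made up 61.9% and 38.1%, which is less separation by this measure than in cells. Their median positions in nuclei still differed, by -0.695 (-0.887 to -0.280) on the first axis and 0.424 (0.0599 to 0.651) on the second.

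**Figure D3:**
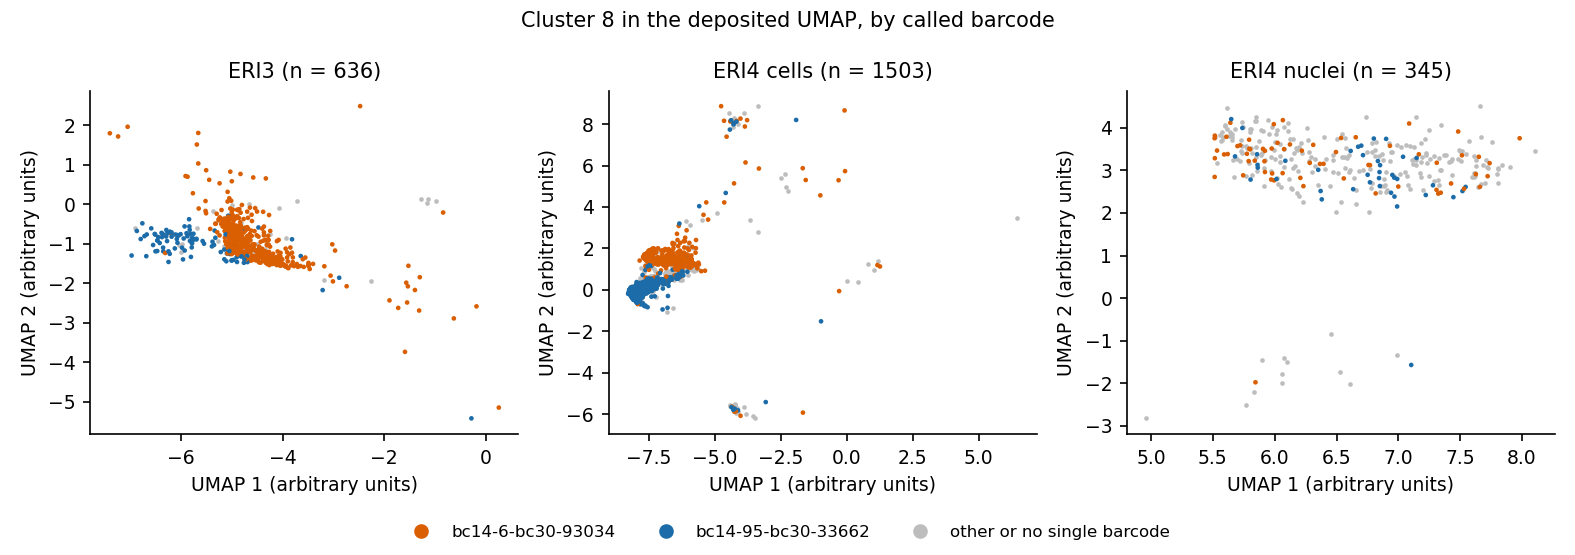
Position of cluster 8 in the deposited UMAP (both axes in arbitrary units) for ERI3, ERI4 cells and ERI4 nuclei, each point 1 member, coloured by its called barcode. In ERI4 cells the orange and blue lineages lie in adjoining areas with medians of 1.51 and 0.160 on the second axis, in ERI3 they lie side by side, and in nuclei the colours overlap, with medians of 3.32 and 2.89 on the second axis.

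Cells with bc14-6-bc30-93034 had a higher mitochondrial share than cells with bc14-95-bc30-33662, in both runs of cells. The mitochondrial share is the percent of a cell's UMIs from mitochondrial genes. In ERI4 cells the medians were 4.64% and 3.95%, a difference of 0.694 points (0.596 to 0.785). In ERI3 they were 2.95% and 2.47%, a difference of 0.487 (0.292 to 0.666). Median UMIs were close, with 20485 and 21204 in ERI4 cells and 10264 and 10149 in ERI3, and both differences had intervals that include 0. Within ERI4 cells the difference was 0.642 in G1, 0.690 in S and 0.685 in G2M cells, so it was present in each phase call. In ERI3 it was 0.600 in G1 and 0.530 in G2M cells, and 0.0746 (-0.404 to 0.691) in the S cells, of which 15 carried the second barcode.

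The difference was not limited to members. Outside cluster 8 it was 0.812 (0.0898 to 1.24) in ERI1, with 95 and 19 cells, and 0.314 (0.0503 to 0.857) in ERI4 cells, with 66 and 68 cells. In ERI3 outside cluster 8 it was 0.446 (-0.244 to 1.46). In nuclei of cluster 8 the medians were 13.4% and 12.2% (difference 1.17, -1.28 to 2.29), and outside it 13.1% and 14.1% (difference -0.984, -1.81 to 0.749), so no direction is given there.

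Pseudotime also separated the pair in ERI4 cells. The medians were 17.2 for bc14-6-bc30-93034 and 18.5 for bc14-95-bc30-33662, a difference of -1.27 (-1.38 to -1.25), and -0.792, -1.41 and -1.97 within G1, S and G2M cells. In ERI3 both medians were at the repeated value of 15.58. In nuclei the medians were 23.1 and 18.7, and the interval of the difference (-0.160 to 5.17) includes 0. Pseudotime was learned from the same expression values that place cells in the UMAP, so position and pseudotime are not independent of each other.

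**Figure D4:**
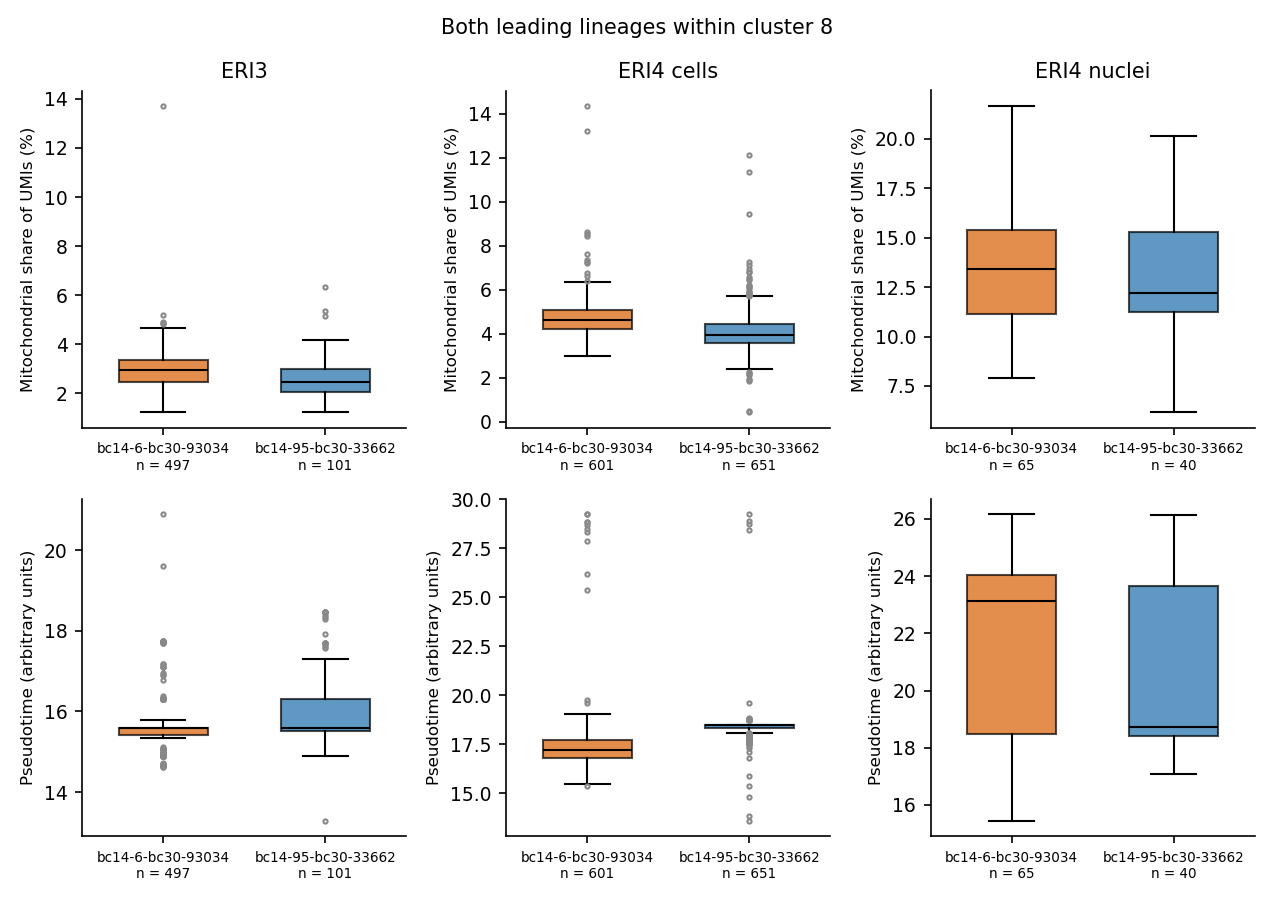
Mitochondrial share (top, percent of UMIs) and pseudotime (bottom, arbitrary units) of members with bc14-6-bc30-93034 (left box) and bc14-95-bc30-33662 (right box) in ERI3, ERI4 cells and ERI4 nuclei; boxes span the quartiles, lines are medians, whiskers reach the last cell within matplotlib's default distance and points are cells beyond. The mitochondrial medians are 2.95% and 2.47% in ERI3 and 4.64% and 3.95% in ERI4 cells, and the boxes overlap in each panel of the top row.

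Cell cycle phases in cluster 8 were read from the deposited S and G2M scores, with G1 where neither score is above 0. In ERI4 cells 34.7% of members were called G1, 29.5% S and 35.8% G2M. In ERI3 the shares were 45.3%, 20.3% and 34.4%. In PAC1 they were 38.9%, 26.1% and 35.0%, and in PAC3 30.2%, 22.4% and 47.4%. With G1 called where neither score is above 0.1, S calls were 10.7% in ERI3 and 12.8% in PAC1. Nuclei have no scores in the table. Depth and free RNA feed into these scores too, so they are given as calls and not as division rates.

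In ERI4 cells, cluster 8 had more S calls and fewer G1 calls than cluster 3, the largest cluster of that condition. S calls made up 29.5% (27.2 to 31.9) of members and 15.7% of cluster 3, a difference of 13.8 percentage points (11.3 to 16.4), and G1 calls 34.7% and 45.2%, a difference of -10.4 (-13.2 to -7.57). In ERI3 the S difference to cluster 3 was 3.84 (-2.46 to 9.52) and the G1 difference -1.38 (-9.19 to 6.36), and both intervals include 0. In ERI4 cells the share of S was close to that of cluster 2 (30.5%) and cluster 12 (29.0%). G2M calls made up 35.8% of members in ERI4 cells, against 36.1% in cluster 2 and 46.2% in cluster 12. In ERI3 they made up 34.4%, against 42.0% in cluster 2 and 49.4% in cluster 12. With depth held to a window common to the conditions (12026 to 19690.5 UMIs), S calls made up 20.6% and G2M calls 23.8% of the members in ERI4 cells. G2M calls then made up 54.3% (46.3 to 62.1) of those in ERI3. The window lay above the median of ERI3 members (10223 UMIs) and below that of ERI4 cells (20485). These shares thus differed with the depth of the members counted, and the cause was not tested.

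**Figure D5:**
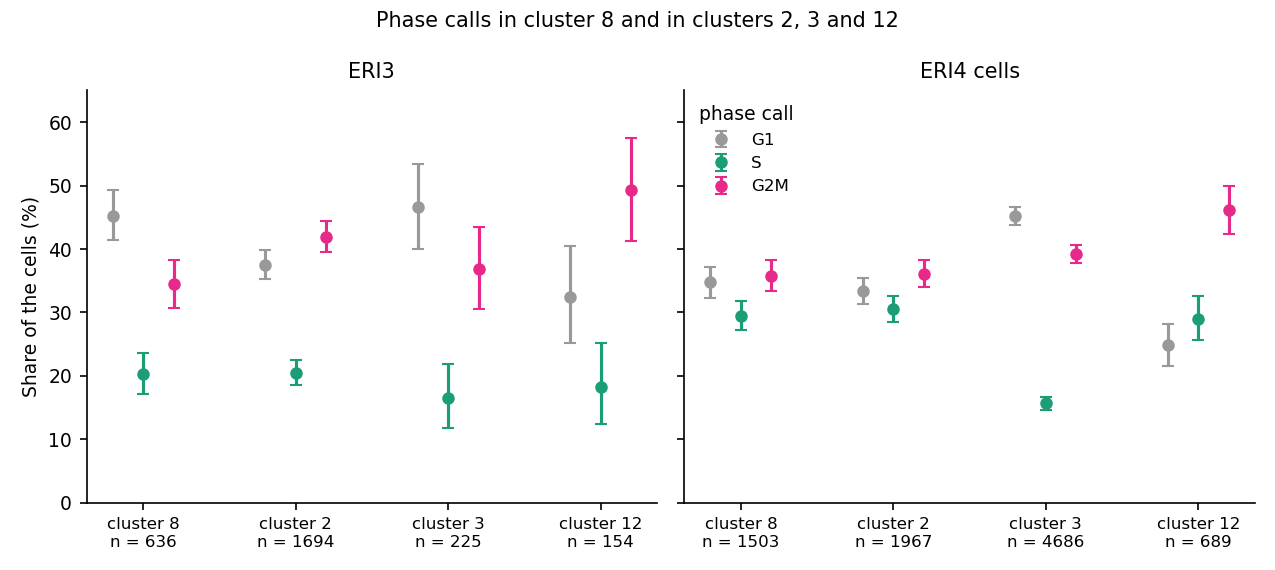
Share of cells called G1, S and G2M (percent, exact 95% binomial intervals) in clusters 8, 2, 3 and 12 of ERI3 and of ERI4 cells, with n below. In ERI4 cells the S share is 29.5% in cluster 8 and 15.7% in cluster 3, and clusters 2 and 12 are near cluster 8.

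The mitochondrial share of members was slightly lower than in clusters 2, 3 and 12 in ERI4 cells. The medians were 4.35% in cluster 8, against 4.55%, 4.85% and 4.73%. By lineage, members with bc14-6-bc30-93034 had 4.64%, above cluster 2, and those with bc14-95-bc30-33662 had 3.95%. In ERI3 the median of cluster 8 was 2.84%, against 3.01%, 3.00% and 2.63%, so cluster 12 lay below cluster 8 there. In cells of matched depth, cluster 8 minus cluster 2 was -0.405 points in ERI4 cells and -0.0290 (-0.222 to 0.101) in ERI3. In PAC1 and PAC3 it was 3.01% and 2.63%, against 2.56% and 2.24% in cluster 9, where members were higher, and 2.93% and 2.82% in cluster 2. To cluster 2 the PAC3 difference was -0.199 points (-0.315 to -0.0403), and the PAC1 difference of 0.0836 (-0.123 to 0.242) has an interval that includes 0. Clusters were made from the same cells' genes, so these contrasts describe the clusters and test nothing.

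With the lineage held fixed, members differed in phase from cluster 6 in PAC1. Of the cells with bc14-6-bc30-93034, 37.2% of 113 members were called G2M, against 56.8% of 74 cells in cluster 6, a difference of -19.6 percentage points (-34.1 to -4.20). Their mitochondrial shares were 2.97% and 3.00%. Against the other PAC1 cells of this lineage, the G2M difference was -21.2 (-42.7 to 2.55) to 24 cells in cluster 1 and 1.45 (-20.6 to 21.0) to 28 in cluster 7, and both intervals include 0. In PAC3 the comparison with cluster 6 gave 46.5% and 62.5%, with an interval (-37.3 to 8.17) that includes 0.

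Outside cluster 8 lay 66 ERI4 cells of the first leading lineage and 68 of the second, and those of them in cluster 3 were deeply sequenced. The 36 cells of bc14-6-bc30-93034 in cluster 3 had a median of 33333 UMIs, against 20485 in its members, and 36 of 36 had 2 or more detected barcodes, against 68.1% of its members. The 28 cells of bc14-95-bc30-33662 in cluster 3 had 33640.5 UMIs, against 21204 in its members. Whether these are droplets with more than 1 cell was not tested.

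In ERI4 cells 91.4% of the 30 nearest neighbours of a member were also in cluster 8, and 95.8% were ERI4 cells. In ERI3, 83.9% were in cluster 8, with 75.04% from ERI3 itself, 12.2% from PAC1 and 1.65% from ERI4 cells. PAC3 members had 54.7% of neighbours in cluster 8, 42.9% from PAC1 and 34.2% from ERI3, and PAC1 members had 44.5% in cluster 8. PAC1 and PAC3 members thus had many ERI3 neighbours, while ERI4 cells had few neighbours from run 2, where run and rounds cannot be told apart. The few members of ERI1, ERI2 and PAC2 had 57.7%, 48.3% and 39.8% of their neighbours in cluster 7 and 31.5%, 44.2% and 36.1% in cluster 8. In ERI4 nuclei 6.98% of neighbours were in cluster 8 and 39.9% in cluster 10, so the cluster formed no area of its own there.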

How the data were processed

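RNA libraries of single PB3 cells and of single nuclei were read from the authors' deposited cell table and lineage barcode lists. The table holds deposited counts of UMIs, genes and detected barcodes per cell, the deposited percent of mitochondrial and ribosomal UMIs, the authors' S, G2M and pseudotime scores, UMAP coordinates, clusters and 3 versions of the barcode call, of which the latest was used. Per the submitters' processing notes, Cell Ranger 3.1.0 and 4.0.0, Cell Ranger ARC 1.0.0, Seurat 3.1.4, Monocle3 0.2.1 and mm10 were used. How barcodes were called is not given in the sources used here. Each condition is 1 library or 1 hashtag group, so no test was made.

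Shares have exact Clopper-Pearson 95% intervals, medians have binomial intervals, and differences combine both. Every nucleus had at least 1 barcode feature, so 1 was subtracted from its count of detected barcodes. For 4935 nuclei, barcode names without hyphens were merged with the hyphenated spelling. Doublets were treated only through the authors' calls. The rule for named barcodes was the 6 most frequent in cluster 8 plus any with at least 5% in a condition with at least 50 members. Members and comparisons were chosen with earlier results of these data known. Python 3.11.15, pandas 2.3.3, SciPy 1.17.1 and matplotlib 3.10.9 were used, and intervals were tested on simulated data.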

Additional observations from a re-analysis of the deposited data

Results flagged for a closer look

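Both results below compare round 3 with round 1 in each drug, with 1 hashtag group per condition, and the difference between the drugs was not tested. The share of the condition in cluster 8 in round 3 minus round 1 was 19.8 percentage points (18.3 to 21.3) with eribulin and -2.78 (-3.99 to -1.57) with paclitaxel. The share of bc14-6-bc30-93034 among barcoded cells in round 3 minus round 1 was 17.3 percentage points (15.0 to 19.6) with eribulin and -7.24 (-9.23 to -5.27) with paclitaxel. In ERI3 a barcode was called in 96.9% of cluster 8 and 65.5% of all other cells, which raises the share of a lineage that lay mostly in cluster 8. Dose and library differ between the drugs and cannot be told apart from the drug, and the last recovery with paclitaxel has no stated length. Depth differed between the rounds too, with median UMIs of 17297 in ERI1, 11266.5 in ERI3, 11674 in PAC1 and 12775.5 in PAC3.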

How the results depend on the processing

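Of 152 alternative values of 68 results, 103 stayed within the counting interval of the reported value, 49 did not, and none of the called differences changed sign. Within a UMI window common to the conditions of one kind (12026 to 19690.5 UMIs in cells, 2176.5 to 4971 in nuclei), the share of the condition in cluster 8 was 16.1% in ERI3, 17.4% in ERI4 cells, 3.33% in PAC3 and 5.99% in ERI4 nuclei. G2M calls were then 54.3% in ERI3, 23.8% in ERI4 cells, 48.4% in PAC1 and 60.0% in PAC3, and S calls 20.6% in ERI4 cells and 34.3% in PAC3. The mitochondrial median was 2.97% in ERI3, 4.48% in ERI4 cells and 13.4% in ERI4 nuclei, and the pseudotime median 17.7, 15.5 and 23.3 in ERI4 cells, PAC3 and ERI4 nuclei. In that window cluster 8 minus cluster 2 in ERI4 cells was 4.32 percentage points for S (-0.568 to 9.14; -1.03 over all depths, both intervals including 0), -0.405 for the mitochondrial share and -7.53 for pseudotime. Cluster 8 minus cluster 3 was 9.51, -0.574 and -12.8, and minus cluster 12 it was -4.60 for S (0.447 over all depths, both intervals including 0) and -8.39 for pseudotime. In ERI3 the mitochondrial difference was -0.0290 to cluster 2 and 0.423 to cluster 12. Between the lineages, bc14-6-bc30-93034 minus bc14-95-bc30-33662 in ERI4 cells was then 0.574 for the mitochondrial share and -1.08 for pseudotime. The causes were not tested.

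With cells of 1 called barcode alone, the share in cluster 8 was 27.8% in ERI3, 20.2% in ERI4 cells, 9.93% in PAC1 and 8.70% in ERI4 nuclei, whose members then had 2607.5 UMIs. With G1 called up to a score of 0.1, S calls were 10.7% in ERI3, 20.8% in ERI4 cells and 12.8% in PAC1, and G2M calls 27.8%, 31.1%, 27.6% and, in PAC3, 34.5%. G1 cells alone had a pseudotime of 17.7 in ERI4 cells. In ERI4 cells the first barcode call gave 49.6% and 44.3% for the leading pair, and cells with exactly 1 detected barcode gave 52.2% and 40.5%, so the order of the pair there depends on the call, with a difference in UMIs of 433.5 between the lineages. In ERI4 nuclei the pair had 28.0% and 38.0% with the first call, which turns its order too, and each of the pair had 8.56% with its first revision. The alternatives within the leading lineages, and the one without shared cell barcodes, were chosen after seeing the data. No paired analysis was possible because each condition has 1 library. Values in conditions with fewer than 50 members, and the S and G2M calls of PAC3, are limited by the number of cells.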

Other observations

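Members in ERI4 cells were spread along the second UMAP axis, and are described here by bounds set after seeing the plot. Of 1503, 1409 lay between -1 and 3 on the second axis, with a median of 20587 UMIs. A further 41 lay below -5, with a median of 3114 UMIs, and 29 of them had no called barcode. Another 34 lay above 5, with a median of 38000 UMIs, 25 of them called G2M and 7 called doublets by the authors. The other 19 lay between these bounds.

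The earlier barcode calls gave another picture of the ERI4 nuclei in cluster 8. The latest call named a barcode in 130 of 345 of them, the first in 50 and the first revision in 187. In the first revision 127 of the 187 carried bc14-55-bc30-23349, of which 55 had no detected barcode, while the latest call gave that barcode to 1 nucleus. ERI4 cells of cluster 8 with no called barcode had a median of 9646 UMIs, and the 20 called doublets had 43071.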
